A study of Mus musculus with 4 samples.

Results

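The cells described here are germinal center (GC) centroblasts (CBs) whose deposited G2M score was higher than their deposited S score, called G2M-leading CBs below. They were chosen by 3 values of the deposited cell table: the subtype name, the G2M score and the S score of each cell. The rule found 1844 cells, which is 1844 of the 2262 CBs and of the 9804 annotated GC B cells, in matrices of 39009 barcodes. The members were 162 cells in WT, 344 (C), 529 (K) and 809 (CK). The other 418 CBs, whose S score was equal or higher, are called S-leading CBs: 21 (WT), 77 (C), 116 (K) and 204 (CK).

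The study asked how loss of 1 allele of Crebbp, Kmt2d or both alters GC B cells. Every mouse carried 1 copy of Cγ1-cre. WT had that allele alone, C also had Crebbp fl/+, K had Kmt2d fl/+ and CK had both floxed alleles. The animals were 8-week-old female mice on a C57BL/6J background that were given sheep red blood cells (SRBC), a T cell-dependent antigen, and splenic B220+IgD- cells were sorted on day 10 for single-cell RNA-seq of 3' ends. Each genotype was 1 mouse and 1 library, so nothing below was replicated and genotypes could not be tested against each other. All intervals are 95% intervals for counting error only, and a mouse, its library and its genotype cannot be told apart. Values listed without a name follow the order WT, C, K, CK, and ratios to WT the order C, K, CK. Cre is expressed from the Cγ1 locus, which limits the deletion to B cells that have transcribed that locus.

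CBs are the dividing B cells of the GC dark zone (DZ), and centrocytes (CCs) are their progeny in the light zone (LZ), where antigen is presented to T cells and clones are selected. After DNA replication a CB passes through G2 into mitosis, where cyclin B and CDK1 drive chromosome condensation and spindle assembly, and the anaphase-promoting complex (APC/C) then ends mitosis by marking cyclin B and other proteins for degradation. Many genes of this phase are transcribed in a late wave through paired CCAAT boxes, bound by NF-Y, and a CHR element, bound by the DREAM and B-MYB complexes, whereas genes of DNA replication are commonly driven through E2F sites.

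The label of these cells comes with 5 markers, although the cells were chosen by subtype name and scores. The DNA just upstream of each marker's RefSeq start is printed here, because all 5 markers hold the letters of both elements within the 300 bases searched. The bases are the 120 before the RefSeq start in build GRCm38.p6, 5′ to 3′ on the gene's strand, with capitals where a motif was found on either strand. GENCODE, another annotation, places the gene start within the printed bases for Cdc20 (118437352), Cenpa (30666777) and Ube2c (164769898). Part of those stretches therefore lies inside the GENCODE gene. That part holds both CCAAT of Cenpa, the CHR letters of Ube2c and the CCAAT of Cdc20 nearest its RefSeq start. CHR letters are TTTGAA and, as a second form, TTCGAA. The CCAAT box is searched by its 5 letters, and E2F letters are TTTCCCGC, TTTGGCGC, TTTCGCGC and TTTGCCGC.
Cdc20, chr4:118437344-118437463, minus strand: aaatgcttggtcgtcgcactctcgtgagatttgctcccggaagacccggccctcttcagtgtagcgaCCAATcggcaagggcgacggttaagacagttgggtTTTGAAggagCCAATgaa
Ccnb2, chr9:70421555-70421674, minus strand: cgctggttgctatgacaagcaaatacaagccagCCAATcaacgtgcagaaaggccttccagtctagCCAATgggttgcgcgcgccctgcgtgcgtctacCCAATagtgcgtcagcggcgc
Hmmr, chr11:40733438-40733557, minus strand: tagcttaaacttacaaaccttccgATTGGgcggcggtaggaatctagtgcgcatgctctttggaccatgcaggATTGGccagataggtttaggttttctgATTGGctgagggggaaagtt
Cenpa, chr5:30666766-30666885, plus strand: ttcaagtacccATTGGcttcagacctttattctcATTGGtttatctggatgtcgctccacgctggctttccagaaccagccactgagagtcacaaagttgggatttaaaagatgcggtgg
Ube2c, chr2:164769809-164769928, plus strand: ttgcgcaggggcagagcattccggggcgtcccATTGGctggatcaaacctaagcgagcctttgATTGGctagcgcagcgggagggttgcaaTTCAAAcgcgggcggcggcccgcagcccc
For contrast, the same stretch of Mcm6, a subunit of the replicative helicase, holds E2F letters, 2 of which overlap each other, and no CHR letters.
Mcm6, chr1:128359706-128359825, minus strand: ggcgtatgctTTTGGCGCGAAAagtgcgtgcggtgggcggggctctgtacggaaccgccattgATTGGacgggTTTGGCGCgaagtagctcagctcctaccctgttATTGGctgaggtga

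Cdc20 has its CHR letters at base -18 and CCAAT at -53 and -8, and Ube2c has them at -29, -88 and -57, counted back from the start. Ccnb2 has CCAAT at -87, -54 and -21, and its CHR letters lie outside the printed stretch, at -167 and at base 5 after the start. The CHR letters of Hmmr and Cenpa also lie after the start, at bases 9 and 17. Of the 83 genes of the mitosis lists used below, 70 were matched to 79 promoters, of which 69.6% held CHR letters, 44.3% at least 2 CCAAT and 35.4% both. The 34 promoters of the 29 matched replication genes held them in 14.7%, 29.4% and 5.88%, and E2F letters in 38.2%, against 8.86% of the mitosis promoters. Over all 32851 promoters the shares were 19.2% for CHR, 11.7% for at least 2 CCAAT, 2.31% for both and 2.26% for E2F letters. These matches describe letters in a window and not bound sites.

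The libraries held 33270825 to 39803865 UMIs in 8071 to 12852 barcodes, with medians of 2202.5 to 3201 UMIs per barcode. Pairs of libraries shared 17 to 31 barcodes, at most 0.359% of the smaller library, and no member shared a barcode with a member of another library. Of the 9804 annotated cells, 2 had 2500 or more genes, at most 2501, and neither was a CB. Members lay near that limit, with medians of 2098.5 genes in WT, 1968 (C), 1935 (K) and 1867 (CK), and 5439.5, 4897.5, 5463 and 4572 UMIs. A nearest-neighbor label given here to cells at or above that limit found another 371 G2M-leading CBs in WT, 336 (C), 440 (K) and 369 (CK). Those cells outnumbered the annotated members in WT and were fewer than them in C, K and CK, and most ratios of members to WT below are given with and without them. Wherever they were added, the lead of every CB was taken from scores computed here and not from the deposited scores. Scrublet called 2.47%, 3.198%, 0.945% and 2.10% of the members doublets in WT, C, K and CK, and 7.82%, 8.93%, 6.82% and 10.0% of the added cells.

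The targeted genes were low in these cells. Levels are given as CPM, the UMIs of a gene per 1000000 UMIs of the class of cells in that library. Crebbp, a histone acetyltransferase, had 54 UMIs (WT), 81 (C), 114 (K) and 151 (CK), which is 64.0 CPM (48.1 to 83.6), 48.2, 40.0 and 40.5. Its log2 ratio to WT was -0.41 (C, -0.92 to 0.11), -0.68 (K, -1.16 to -0.19) and -0.66 (CK, -1.12 to -0.18), so that K, with intact Crebbp alleles, was also below WT. With the added cells these ratios were -0.75, -0.66 and -0.91. Kmt2d, a histone H3 lysine 4 methyltransferase, was at 26.1 (16.4 to 39.5), 16.7, 7.36 and 16.1, and only K had an interval below 0 for its log2 ratio, at -1.83 (-2.76 to -0.89). With the added cells the Kmt2d ratios were 0.34, -0.79 and -0.10, and C changed sign. Reads from 3' ends may lie outside the deleted exons, so neither gene checks the genotypes.

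The 5 markers of the label were several-fold more abundant in G2M-leading than in S-leading CBs. Their total was 2566 CPM (WT), 2655 (C), 2794 (K) and 2614 (CK), against 605, 676, 646 and 672 in S-leading CBs, and the log2 ratio was 2.08 (WT, 1.75 to 2.44), 1.97 (C, 1.80 to 2.16), 2.11 (K, 1.97 to 2.26) and 1.96 (CK, 1.85 to 2.07). All 5 passed 1.5-fold in each of the 4 libraries, where 2.34% of the 2950 genes tested in every library were higher to that extent and 2.31% were lower. These genes or their companions entered the scores and the subtype names, so this is a description of what the rule selected, with no test.

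Cdc20, the activator of the APC/C, was at 403 CPM (WT, 361 to 448), 284 (C, 259 to 310), 460 (K, 435 to 486) and 267 (CK, 251 to 285), against 45.2 to 67.6 in S-leading CBs and 3.2 to 8.0 in CCs. C and CK were the low libraries for Cdc20, with intervals that did not overlap those of WT and K. Ccnb2, cyclin B2, was at 693 (WT), 681 (C), 685 (K) and 582 (CK). CK alone was low for Ccnb2, with an interval of 558 to 607 against 638 to 751 (WT). Cenpa, the histone H3 variant of centromeres, was at 752 (WT), 675 (C), 662 (K) and 609 (CK). Hmmr, a spindle-associated hyaluronan receptor, was at 319 (WT), 326 (C), 175 (K) and 322 (CK), so that K stood apart from the other 3 libraries. Ube2c, the ubiquitin-conjugating enzyme of the APC/C, was at 400 (WT, 358 to 445) and at 689 (C), 812 (K) and 833 (CK), with WT below every mutant library. With the added cells the log2 ratios to WT were -0.17, 0.44 and -0.20 for Cdc20, which kept their signs, and 0.20, 0.28 and 0.11 for Ube2c. Those of Cenpa turned to 0.13, 0.04 and 0.02, and that of Ccnb2 in CK to 0.07, while Hmmr in K stayed low at -0.79.

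**Figure D1:**
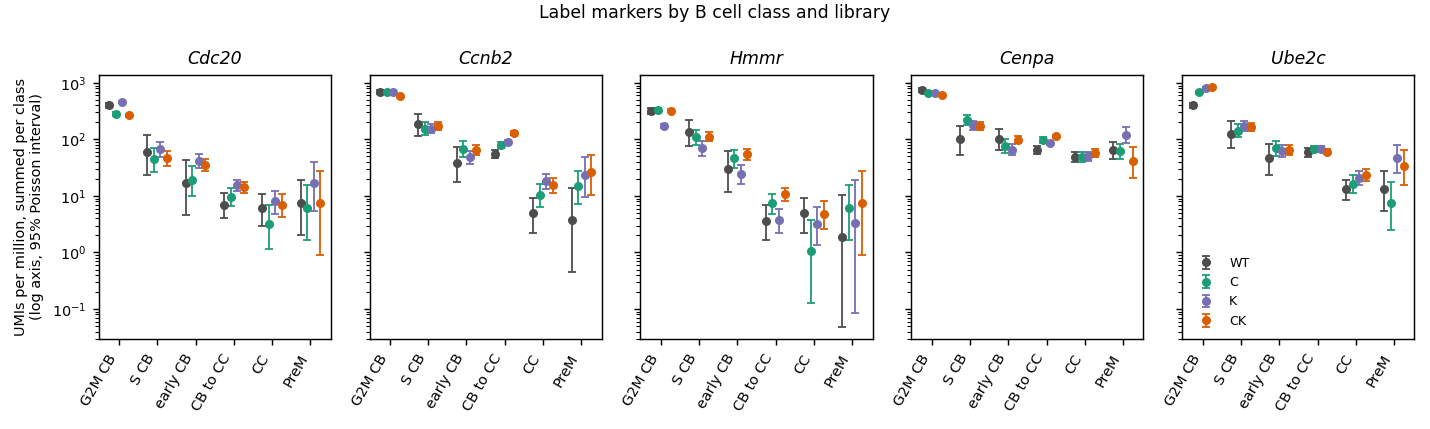
Level of each label marker, as CPM over a class of cells, on a log axis with 95% Poisson intervals. Columns are G2M-leading CBs (G2M CB), S-leading CBs (S CB), early CBs, cells in transition from CB to CC, CCs and prememory cells (PreM), and colors are the 4 libraries (1 mouse each). In every library each marker was highest in G2M-leading CBs, with Cdc20 at 267 to 460 there and at 3.2 to 8.0 in CCs.

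Detection in single cells was also most frequent in members. At least 3 of the 5 markers had a UMI in 82.7% of members in WT (76.0 to 88.2), 85.2% (C), 86.8% (K) and 81.2% (CK), and in 42.9%, 35.1%, 50% and 34.3% of S-leading CBs, which had as many UMIs per cell or more. The shares were 10.53 to 15.8% in early CBs, 3.40 to 7.58% in cells in transition from CB to CC, and at most 0.818% in CCs and 2.15% in prememory cells. Recycling cells, of which there were 8 (WT), 10 (C), 15 (K) and 49 (CK), were at 0, 20, 20 and 20.4%. Barcodes that carried T cell genes, which gauge free RNA and doublets, had a share of 0.782 to 1.52% at 1983 to 3258 median UMIs. The members also held GC genes, with Rgs13 at 474 to 701 CPM, Mef2b at 388 to 492 and S1pr2 at 111 to 129. Genes of other cell types summed to 17 to 33 CPM for 7 T cell genes and 3 to 10 for 6 myeloid genes. They summed to 40 to 74 for 5 erythroid genes and 90 to 196 for 6 follicular B cell genes. The total of the 6 plasma cell genes was far higher, at 2827 to 3285 CPM, against 2367 to 2690 in S-leading CBs. Of the 6, only 3 reached 50 UMIs over members and S-leading CBs in any library, so the total does not speak for all 6. Cd4 had no UMI in members of WT and C.

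G2M-leading CBs made up most CBs in every genotype, with the highest share in WT. The share was 88.5% (WT, 83.0 to 92.8), 81.7% (C, 77.7 to 85.3), 82.0% (K, 78.8 to 84.9) and 79.9% (CK, 77.3 to 82.3). The difference from WT was -6.81 percentage points (C, -12.7 to -0.228), -6.51 (K, -11.8 to -0.270) and -8.66 (CK, -13.6 to -2.62). Of all annotated GC B cells the members were 13.2% (WT), 16.9% (C), 20.5% (K) and 20.5% (CK), so the order of WT and the mutants turned with the denominator. With the cells above 2500 genes added, the share of CBs was 80.5% (WT), 81.0% (C), 85.0% (K) and 78.7% (CK), and the differences from WT became 0.503, 4.51 and -1.78 points.

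The 2 groups of CBs lay further apart in the S score, which the rule also used, than in the G2M score. Median G2M scores of members were 0.406 (WT), 0.528 (C), 0.455 (K) and 0.572 (CK), and those of S-leading CBs were 0.257, 0.307, 0.248 and 0.304. Median S scores were -0.175, -0.123, -0.101 and -0.0333 in members and 0.545, 0.540, 0.462 and 0.525 in S-leading CBs. The gap in medians was -0.720, -0.663, -0.563 and -0.558 for S and 0.149, 0.221, 0.207 and 0.269 for G2M. Among members, 12.3% (WT), 6.69% (C), 9.26% (K) and 5.93% (CK) had a G2M score below 0. Within 0.02 of the threshold lay 39 members, with median scores of 0.309 for G2M and 0.307 for S, and 23 S-leading CBs, with 0.129 and 0.143. Outside CBs the G2M score led in 0, 3, 3 and 12 early CBs of WT, C, K and CK, and in 18.6 to 24.1% of CCs. Those CCs had median G2M scores of -0.183 to -0.144 and none reached 0.2, whereas 118 of 162 members in WT, 266 of 344 (C), 405 of 529 (K) and 686 of 809 (CK) did. Of the leading early CBs, 3 (C), 2 (K) and 12 (CK) were also above 0.2. So were 4, 2, 5 and 12 of the 114, 136, 145 and 185 leading cells in transition from CB to CC. Recycling cells gave 1 (C) and 4 (CK), and prememory cells 1 (WT) and 1 (K).

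Genes of mitosis were higher in G2M-leading than in S-leading CBs, but not all of them. Of 65 mitosis genes tested in every library, 23 were at least 1.5-fold higher in all 4 and 1 was lower, where the shares of all genes were 2.34% and 2.31%. The lists share genes with the scores that chose the members, so these counts and those of single lists below describe the selection and nothing is read from them. The list that drives entry into mitosis (cyclins, CDK1 and CKS) was higher as a total, with log2 ratios of 1.01 (WT), 1.10 (C), 1.04 (K) and 1.03 (CK). Within it Ccnb1, cyclin B1, had log2 ratios of 2.78, 2.41, 2.77 and 1.98, whereas Ccna2, cyclin A2, which acts from S phase on, had 0.74, 0.40, 0.11 and 0.61. Cdk1 itself was not higher throughout: its log2 ratio was -1.13 (WT, -1.80 to -0.40), 0.18 (C), -0.02 (K) and 0.32 (CK, 0.11 to 0.54). With the cells above 2500 genes added on both sides, Cdk1 was higher in all 4 libraries, at 0.69, 0.95, 0.73 and 0.69.

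Mitotic kinases and the passenger complex had list ratios of 0.64 (WT), 0.84 (C), 0.60 (K) and 0.88 (CK) on the log2 scale, and 5 of 8 tested genes were 1.5-fold higher in all libraries. Plk1, which acts at centrosomes and kinetochores, had log2 ratios of 2.46, 1.47, 1.21 and 1.61, and Aurka, a centrosomal kinase, 2.15, 1.58, 1.44 and 1.85. Aurkb, the kinase of the passenger complex, went the other way in WT, at -1.49, and was at -0.00 (C), -0.49 (K) and 0.02 (CK), but at 0.22, 0.41, 0.30 and 0.35 with the added cells. For centromere chromatin the list ratios were 1.02, 0.80, 0.70 and 0.94. Cenpf, a kinetochore protein that accumulates in G2, was at 400 CPM (WT), 501 (C), 364 (K) and 562 (CK), against 42.0, 141, 99.1 and 131 in S-leading CBs. Among motors and spindle proteins, Kif20a, a kinesin of cytokinesis, had log2 ratios of 2.03, 0.95, 1.25 and 1.19 and Tpx2, which activates AURKA on the spindle, 1.86, 1.10, 1.26 and 1.39. Kif11, the kinesin that separates spindle poles, was at -0.39, -0.27, 0.04 and 0.12, each with an interval that included 0.

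Condensin and chromatin compaction genes had list ratios of -0.12 (WT), 0.16 (C), 0.10 (K) and 0.29 (CK), which became 0.37, 0.34, 0.33 and 0.35 with the added cells, so that WT turned. None of 8 tested genes passed 1.5-fold in all libraries, where 2.34% of all genes did so upward. Top2a, the topoisomerase that resolves replicated chromosomes, was lower in members in every library, at log2 ratios of -1.24, -0.50, -0.53 and -0.14, which the added cells turned to 0.18 (WT), 0.16 (C) and 0.21 (CK). Mki67, a proliferation marker that coats mitotic chromosomes, was at -0.06, 0.26, -0.09 and 0.38. Outside the Seurat cell cycle lists, the 8 genes with the highest lowest ratio over the libraries were Cdkn3, Ccnb1, Knstrn, Plk1, Dynlt3, Kif20a, Racgap1 and Tuba1c. Cdkn3, a phosphatase that acts on CDKs, was at 407 CPM (WT), 383 (C), 436 (K) and 377 (CK) against 84.1, 88.0, 99.1 and 74.0 in S-leading CBs. Racgap1, a component of centralspindlin, and Tuba1c, an alpha-tubulin, had log2 ratios of at least 0.91 and 0.87.

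**Figure D2:**
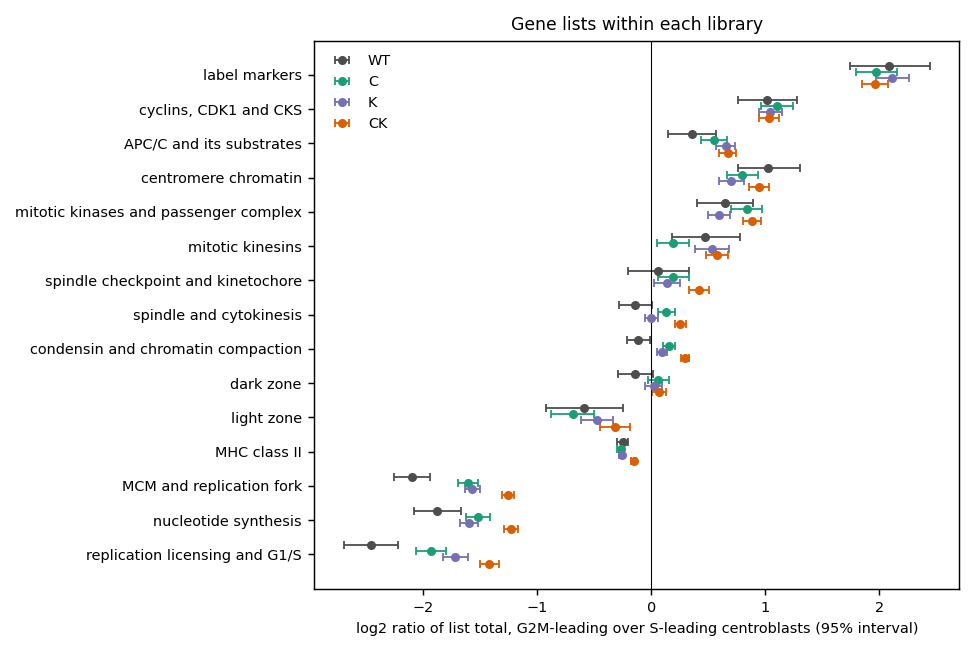
Log2 ratio of the summed CPM of each gene list in G2M-leading over S-leading CBs, within each library, with 95% intervals for counting error. Replication lists lay between -2.46 and -1.23, the label markers between 1.96 and 2.11, and the condensin list between -0.12 and 0.29. WT has 21 S-leading cells and the widest intervals.

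Replication genes were lower in members, as follows from a rule that asks for an S score below the G2M score. Of 23 replication genes tested in every library 22 were at least 1.5-fold lower in all 4 and none was higher, where 2.31% of all genes were lower, and nothing is read from that count. The replication total was 2162 CPM (WT), 3090 (C), 3318 (K) and 4184 (CK), against 9314, 9672, 10105 and 10163 in S-leading CBs, with log2 ratios of -2.11 (-2.22 to -2.00), -1.65, -1.61 and -1.28 (-1.32 to -1.24). With the added cells these ratios were -1.11, -1.17, -1.07 and -1.03, and the totals of members 4333, 4290, 4340 and 4754 CPM. In the annotation WT members were lowest and CK members highest, whereas with the added cells WT, C and K lay close together below CK. In the annotation the ratios of S-leading CBs to WT were 0.05, 0.12 and 0.13 on the log2 scale. Among the lowest outside the Seurat lists were Lig1, the ligase that joins Okazaki fragments, at -3.26, -2.34, -2.09 and -1.66 on the log2 scale, and Pclaf, a PCNA-binding protein, at -2.00, -1.41, -1.58 and -1.06. Rrm2, a subunit of ribonucleotide reductase, was at 105 CPM (WT), 205 (C), 197 (K) and 294 (CK), against 773 to 1000 in S-leading CBs, and the members were at 273, 315, 290 and 339 with the added cells. Pcna, the sliding clamp, and Mcm6, shown above with its E2F letters, had log2 ratios of -2.38 to -1.81 and of -2.25 to -1.44.

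Light zone genes were lower in members in the annotation, and dark zone genes differed little. The light zone list had list ratios of -0.59 (WT), -0.69 (C), -0.48 (K) and -0.32 (CK), which became 0.04, -0.36, -0.24 and 0.03 with the added cells. Cd83, an activation marker of the LZ, was at 56.9 (WT), 60.1 (C), 71.5 (K) and 69.3 CPM (CK) against 84.1, 171, 152 and 116 in S-leading CBs and 421 to 572 in CCs. Dark zone genes were at -0.14, 0.06, 0.02 and 0.07. Cxcr4, the chemokine receptor that holds cells in the DZ, was at 40.3, 35.1, 29.1 and 28.7 CPM and its ratio to S-leading CBs had an interval that included 0 in every library. MHC class II, which presents antigen, summed to 27551 CPM (WT), 26743 (C), 28561 (K) and 23910 (CK), at -0.25, -0.27, -0.26 and -0.15 against S-leading CBs, turning to 0.18 (WT) and 0.02 (CK) with the added cells. Myc stood at 3.5 to 4.7 CPM and Ccnd2, a D-type cyclin of LZ cells that return to the DZ, at 0 in WT (upper bound 4.37) and at most 2.4 in the mutants, too few UMIs to compare. The median deposited dark zone score was higher in members than in S-leading CBs in all 4 libraries, by 0.0662, 0.0920, 0.0765 and 0.0827 of score. Another deposited score, of genes higher in CBs than in CCs, went the other way in all 4, with differences of -0.0188, -0.0131, -0.0164 and -0.0118. The dark zone list used here lay between -0.14 and 0.07 on the log2 scale.

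Most G2M-leading CBs lay in 2 deposited clusters that differed in their cell cycle genes. Cluster 6 held 78.4% of members in WT (71.3 to 84.5), 64.8% (C), 72.2% (K) and 54.0% (CK, 50.5 to 57.5), and cluster 3 held 12.3% (7.71 to 18.4), 31.1%, 26.1% and 43.4% (39.9 to 46.9), of which WT gave 20 cells. Members in cluster 3 had positive median S scores, 0.158, 0.176, 0.197 and 0.219, and those in cluster 6 negative ones, -0.181, -0.166, -0.144 and -0.129. Replication genes were higher in cluster 3, where their total was 6129 CPM (WT), 5682 (C), 6472 (K) and 6156 (CK), against 1639, 1693, 1992 and 2292 in cluster 6. Its mitosis total was also higher, with log2 ratios to cluster 6 of 0.64, 0.63, 0.36 and 0.52, whereas its label markers were lower, at -0.66, -0.46, -0.88 and -0.49. Top2a was at 1928, 2019, 1062 and 1998 CPM in cluster 3 and at 271, 356, 257 and 466 in cluster 6. Cdc20 had the opposite order, at 118, 148.5, 221 and 171 in cluster 3 and 491, 377, 571 and 374 in cluster 6. The clusters were made by the authors from these same cells, so the contrast is a description.

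**Figure D3:**
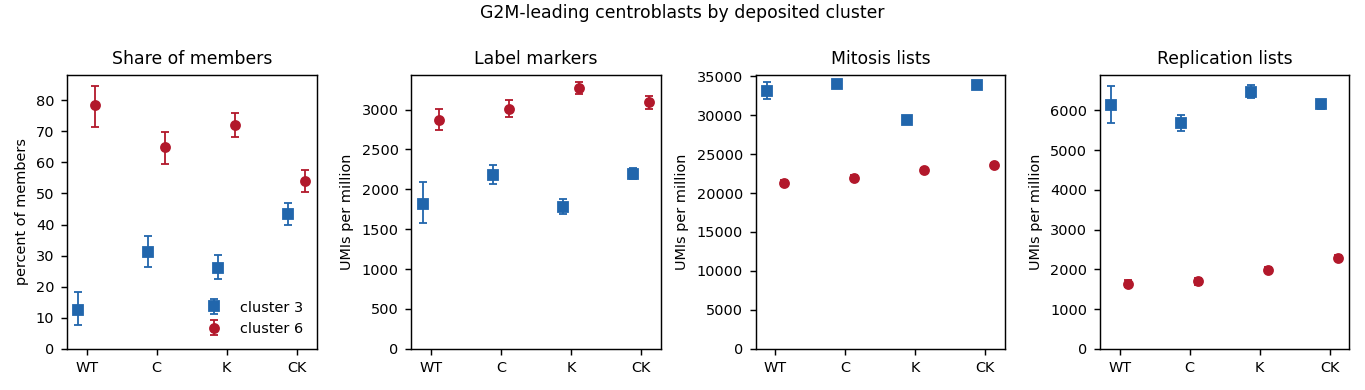
G2M-leading CBs of deposited clusters 3 (squares) and 6 (circles) in the 4 libraries: percent of members with 95% Clopper-Pearson intervals, and summed CPM of label markers, mitosis lists and replication lists with 95% Poisson intervals. Cluster 3 held 12.3% of members in WT and 43.4% in CK, and within it the replication total stayed between 5682 and 6472.

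The genotype comparison of replication genes differed when it was made within each cluster. Over all members the replication total was above WT by 0.52 on the log2 scale (C, 0.44 to 0.59), 0.62 (K, 0.55 to 0.69) and 0.95 (CK, 0.88 to 1.02). Within cluster 3 the same ratios were -0.11 (-0.23 to 0.01), 0.08 (-0.04 to 0.20) and 0.01 (-0.11 to 0.12). Within cluster 6 they were 0.05 (-0.06 to 0.16), 0.28 (0.18 to 0.38) and 0.48 (0.39 to 0.58). Members with an S score above 0 were 13.6% (WT), 31.7% (C), 29.7% (K) and 44.6% (CK). When cells above 2500 genes were added, with scores computed here, they were 34.65% (WT), 33.1% (C), 29.8% (K) and 39.0% (CK), and WT no longer stood apart. This comparison was chosen after seeing the data.

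**Figure D4:**
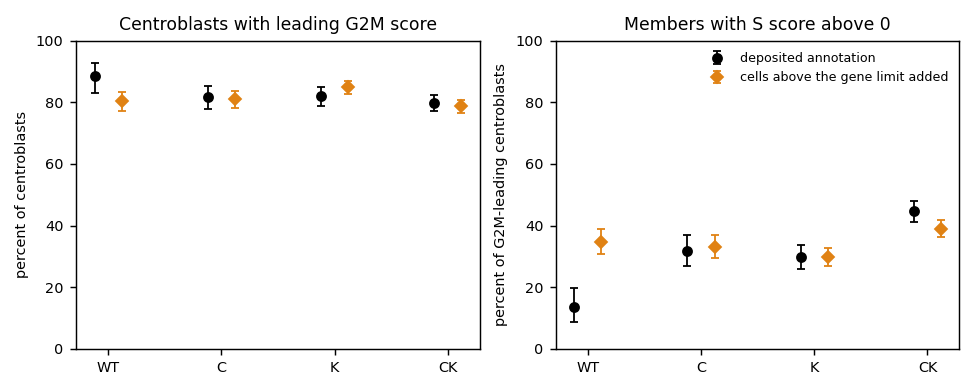
Percent of CBs with a leading G2M score (left) and percent of those members with an S score above 0 (right), with 95% Clopper-Pearson intervals, in the deposited annotation (circles) and after adding cells above 2500 genes labeled by their nearest neighbors (diamonds). The right panel moves in WT from 13.6% to 34.65% and less in the other libraries. Diamonds use scores computed here for all CBs, in place of the deposited scores.

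In the annotation members were not larger than S-leading CBs in UMIs. Their median UMI count was 0.947 of that of S-leading CBs in WT, 0.961 (C), 0.921 (K) and 0.961 (CK), and with the added cells 0.9075, 0.976, 1.185 (1.07 to 1.27) and 0.923, so that K members were then larger. Depth differed by library in all cells: T cell gene barcodes had 0.736 of the WT median in C, 0.844 (K) and 0.609 (CK), and members 0.900, 1.00 and 0.841. Unspliced counts were 24.8% of members' velocity counts in WT, 25.7% (C), 19.7% (K) and 24.2% (CK), and K was also the lowest library in S-leading CBs (21.7% against 24.4 to 27.6%). The deposited pseudotime runs from CBs through CCs to prememory cells. In it the median member came after 16.2% of WT cells in WT, 10.8% (C), 12.1% (K) and 5.46% (CK). The median S-leading CB came after 1.87 to 3.22%. IgM transcripts led among heavy chain isotypes in 85.8% of members in WT (79.5 to 90.8), 61.3% (C), 75.2% (K) and 70.6% (CK). Ighg1, the isotype whose locus carries the Cre, led in 4.94% (2.16 to 9.498), 11.3%, 10.6% and 8.65%.

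In the deposited annotation, totals of the mitosis and replication lists were higher in members of the mutant libraries than in those of WT. Of the 36 replication genes, 27 could be tested in C, 30 (K) and 35 (CK), and 10, 16 and 30 were at least 1.5-fold above WT, against 5.87%, 5.47% and 9.77% of all genes tested, and 0, 2 and 0 below, against 4.19%, 19.2% and 8.21%. All 83 mitosis genes could be tested. Of these, 23 (C), 17 (K) and 35 (CK) were at least 1.5-fold above WT and 0, 13 and 1 at least 1.5-fold below, against the same shares of all genes. The list median was 0.27, 0.22 and 0.48 for mitosis and 0.41, 0.60 and 0.97 for replication, beside -0.0015, -0.11 and -0.02 for all genes. Mitosis totals had log2 ratios to WT of 0.25 (C, 0.23 to 0.28), 0.19 (K, 0.17 to 0.22) and 0.39 (CK, 0.37 to 0.42). Label marker totals had log2 ratios of 0.05 (C, -0.03 to 0.12), 0.12 (K, 0.05 to 0.19) and 0.03 (CK, -0.04 to 0.09). In K the lists of mitotic kinesins (-0.35) and centromere chromatin (-0.16) were below WT, and the other mitosis lists were above. The lists share genes with the scores that chose the members, and genes of a list were read from the same cells and library. These counts describe the 4 libraries only.

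With the cells above 2500 genes added the differences in mitosis and replication totals were small or gone. The replication log2 ratio to WT became -0.01 (C, -0.04 to 0.01), 0.00 (K, -0.02 to 0.03) and 0.13 (CK, 0.11 to 0.16), and the mitosis ratio -0.01, -0.10 and 0.03. The added cells' own replication totals were 4686 CPM (WT), 4782 (C), 4799 (K) and 5242 (CK), above those of the annotated members of the same library, and most of all in WT, where the annotated members had 2162. CK alone kept a replication total above WT under both choices. Relative to the same ratio in S-leading CBs, the replication ratios in the annotation were 0.46 (C), 0.50 (K) and 0.83 (CK).

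**Figure D5:**
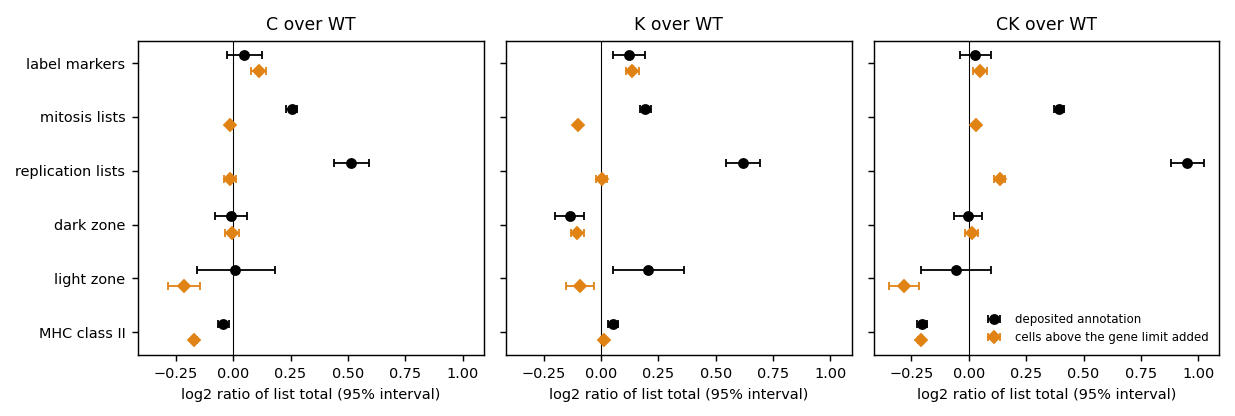
Log2 ratio of list totals in G2M-leading CBs of C, K and CK over WT with 95% intervals for counting error, in the deposited annotation (circles) and after adding cells above 2500 genes (diamonds). The replication lists move from 0.52, 0.62 and 0.95 to -0.01, 0.00 and 0.13, while MHC class II in CK stays at -0.20 and -0.21. For diamonds the members were chosen by scores computed here.

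MHC class II was lower in CK members under both choices, at -0.20 (-0.23 to -0.18) in the annotation and -0.21 with the added cells, whereas C was at -0.04 and -0.17 and K at 0.05 and 0.01. S-leading CBs of CK were also low, at -0.30, so the ratio relative to them was 0.10. Ciita, the transactivator of MHC class II genes, was at 113 CPM (WT), 84.5 (C), 66.3 (K) and 59.1 (CK), with a log2 ratio of -0.93 (CK, -1.28 to -0.57). Its ratios to WT were -0.54, -0.51 and -0.72 with the added cells. Of the 10 MHC class II genes, 2 were 1.5-fold lower in CK and none higher, where 8.21% of all genes were lower and 9.77% higher. Dark zone totals differed from WT by -0.01 (C), -0.14 (K) and -0.00 (CK), and light zone totals by 0.01, 0.21 and -0.06, of which the K values alone had intervals without 0. With the added cells the light zone ratios were -0.21, -0.09 and -0.28, so the K value turned, and the dark zone ratios were -0.01, -0.10 and 0.01.

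In the annotation, the genes ranked highest in CK over WT were genes of the cell cycle. The 6 with the highest ratio, among genes at 100 CPM or more in CK or WT with C and K ratios of the same sign, were Hist1h2ap, Ncaph, Fbxo5, Lig1, Cdk1 and Plk4. Members were chosen by cell cycle scores, so this ranking describes these libraries only. Hist1h2ap, a replication-dependent histone H2A gene, had 41 UMIs (WT), 190 (C), 695 (K) and 1019 (CK), which is 48.6, 113, 244 and 274 CPM, and a log2 ratio of 2.49 (CK, 2.04 to 2.98). WT was the lowest library for it, but with the added cells C fell below WT, at -0.62, while K and CK stayed above, at 0.71 and 0.54. Hist1h2ap belongs to a family of near-identical genes, and how reads were split among them is uncertain. Fbxo5, the APC/C inhibitor EMI1, was at 41.5, 113, 98.9 and 132 CPM, with log2 ratios in CK of 1.67 in the annotation and 0.24 with the added cells. Cdk1 was at 92.5, 214, 226 and 277, and its ratios to WT of 1.21, 1.29 and 1.58 became 0.22, 0.29 and 0.24. Ncaph, a condensin subunit, and Plk4, which starts centriole duplication, went from 1.67 and 1.56 (CK) to 0.24 and 0.10. In K they turned from 0.68 and 0.39, the latter with an interval that included 0, to -0.62 and -0.75, and Lig1 in C turned from 0.81 to -0.09.

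Among genes at 100 CPM or more in CK or WT, with C and K also below WT, the 6 lowest in CK over WT were Gm47283, Gsn, Cd2, Aldh2, Sash3 and Cotl1. That C and K lay below WT in the annotation was thus set by the ranking. All 6 were lower in CK under both choices. They were picked by this ratio in the annotated members, most of which also belong to the enlarged set, so the choices are not independent. Gm47283, an uncharacterized gene annotated near the end of chromosome Y (90784738 to 90816464 in GRCm38), was at 160 CPM (WT), 54.7 (C), 72.2 (K) and 40.8 (CK), with a log2 ratio in CK of -1.97 and of -2.27 with the added cells. The mice were female, and where the reads assigned to this gene came from was not tested. WT was the highest library for it also in S-leading CBs (277 against 48.7 to 108) and CCs (150 against 33.2 to 60.3). Gsn, the actin-severing protein gelsolin, was at 148, 101, 76.1 and 52.9, and at -1.49 and -0.99 on the log2 scale (CK). Cotl1, an actin-binding protein, was at 363 (WT), 205 (C), 348 (K) and 187 (CK), so that C and CK were low and K was not, and with the added cells its log2 ratios to WT were -0.69, -0.02 and -0.91. Aldh2, an aldehyde dehydrogenase, Cd2, an adhesion receptor, and Sash3, an adaptor protein of lymphocytes, had log2 ratios in CK of -1.05, -1.16 and -1.02, which became -0.72, -0.76 and -0.56.

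K had a pattern of its own across classes of cells. Mki67 was at 386 CPM in members of K against 849 (WT), 954 (C) and 1010 (CK), and the same library was lowest in S-leading CBs (412 against 777 to 883), early CBs (242 against 546 to 633) and CCs (26.4 against 51.9 to 58.3). Kif11 in members was at 128 (WT), 226 (C), 81.7 (K) and 249 (CK), and Cenpe, a kinetochore motor, at 572, 490, 324 and 488. After adding the cells above 2500 genes, the log2 ratios of K to WT were -1.48 for Mki67, -1.47 for Kif11 and -0.91 for Cenpe. Those of C and CK were -0.34 and -0.30 for Mki67, which had been 0.17 and 0.25, and -0.04 and -0.01 for Kif11, which had been 0.82 and 0.96. K was also the library with the lowest unspliced percent and with 19.2% of all genes at least 1.5-fold below WT. What part those library-wide values had in the genes named here was not tested.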

How the data were processed

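Splenic B220+IgD- cells of 1 mouse per genotype were profiled by droplet 3' RNA-seq. The authors counted UMIs with Cell Ranger (3.0 in the submitters' processing notes, 3.0.2 in the file headers) against mm10, and the deposited counts are raw UMIs of 31053 genes per barcode. The deposited cell table, made in Seurat 4.0, gives counts per cell, the percent of mitochondrial UMIs, subtype names, clusters, pseudotime ranks and a cell cycle or zone score per cell, which sets a gene list against control genes.

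Members and gene lists were chosen with earlier results of these data known. UMIs were summed per class and library and scaled to 1000000 (CPM). Intervals were exact: Poisson for levels, Clopper-Pearson for shares and conditional binomial for ratios, and UMIs of 1 library are not replicates. Genes had at least 50 UMIs over both groups, and 1.5-fold was the size counted. Named genes were the label markers, Crebbp, Kmt2d, genes set by role, the 8 highest and 8 lowest G2M over S ratios outside the Seurat lists at 100 CPM or more, and the 6 highest and 6 lowest CK over WT ratios. Cells above 2500 genes took the most frequent label of 25 neighbors over 30 principal components, which returned 86.8% of known CBs, and scores computed here from the Seurat lists gave the same lead in 95.8% of CBs. Doublets were called with Scrublet and kept. Scripts used scanpy 1.11.5, numpy 2.4.6, scipy 1.17.1 and pandas 2.3.3 and were tested on simulated data. Alternatives were other scalings, UMI minimums, denominators and scores, a lead of at least 0.1, thinning to 2000 UMIs per cell, removal of doublets and the added cells. Promoter sequences are those of RefSeq (GRCm38.p6) and gene positions those of GENCODE.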

Additional observations from a re-analysis of the deposited data

Results flagged for a closer look

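All but 2 of the cells at or above 2500 genes lie outside the annotation, and those labeled CB here with a leading G2M score numbered 371 (WT), 336 (C), 440 (K) and 369 (CK). They came from data that the deposited annotation does not use. Their label markers were at 2494, 2719, 2735 and 2563 CPM, close to the 2566, 2655, 2794 and 2614 of the annotated members, and far above the 750 to 965 of added cells whose S score led. Their median UMI counts were 11893, 10670, 11677 and 9986.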

How the results depend on the processing

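No paired analysis was possible because each genotype was 1 library. Each value was set against its value under each alternative tried for it, and every such pair was counted. For values that answer a comparison, 202 pairs counted as kept, 79 as moved and 14 as reversed. For single genes and lists these were 1781, 265 and 23. Values whose interval in the annotation held both signs could change sign without counting as reversed. With the added cells, dark zone CK over WT went from -0.0036 to 0.013 and counted as kept. Light zone C over WT went from 0.0098 to -0.21 and counted as moved. The limit of 2500 genes mattered most, and the cause was not tested. Labels of added cells are uncertain. In a check 86.8% of known CBs regained theirs, but those cells were below the limit and had fewer UMIs. The check does not measure how many added cells with a CB label are CBs. WT has 162 members and 21 S-leading CBs, which limits its ratios.

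With the cells above that limit added, the difference from WT in the share of CBs became 0.503 (C), 4.51 (K) and -1.78 points (CK), and that in the share with an S score above 0 became -1.52, -4.84 and 4.31. G2M over S log2 ratios became 1.65 (WT), 1.78 (K) and 1.72 (CK) for label markers, 0.61, 0.58, 0.55 and 0.57 for mitosis and -1.11, -1.17, -1.07 and -1.03 for replication (WT, C, K, CK). Among these ratios Aurkb reversed to 0.22 (WT) and 0.30 (K), Cdk1 to 0.69 (WT), Ighg1 to 0.14 (K), Ighm to 0.29 (C), Ncaph to 0.050 and Plk4 to 0.059 (WT), Top2a to 0.18 (WT), 0.16 (C) and 0.21 (CK), condensin to 0.37 (WT), MHC class II to 0.18 (WT) and 0.019 (CK), and light zone to 0.038 (WT) and 0.025 (CK). Ratios to WT in C, K and CK became -0.013, -0.099 and 0.032 for mitosis, -0.014, 0.0023 and 0.13 for replication and -0.21, -0.093 and -0.28 for light zone, with MHC class II at -0.17 (C) and 0.011 (K). Ratios to WT reversed for Ccnb2 in CK (0.072), Cenpa in C, K and CK (0.13, 0.038, 0.022), Hist1h2ap in C (-0.62), Ncaph in K (-0.62), Lig1 in C (-0.091) and Plk4 in C (-0.013), and Plk4 in K, whose interval included 0, went to -0.75. Genes 1.5-fold above WT were 140 (C), 100 (K) and 191 (CK), and those below were 1780 (K) and 348 (CK). The UMI ratio of G2M-leading to S-leading CBs became 1.185 (K).

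With all annotated cells as denominator the share differences reversed to 3.65, 7.28 and 7.26 points. With at least 20 UMIs per gene, 713 genes were above and 605 below WT in C, 586 and 1857 (K) and 1037 and 1014 (CK); with at least 1 UMI, 1872 and 2804, 895 and 4708, and 1326 and 3929. A lead of at least 0.1 gave G2M over S ratios of 2.35 (C), 2.51 (K) and 2.355 (CK) for label markers, 0.31 for mitosis in C and -2.44, -1.87, -1.89 and -1.57 for replication, and ratios to WT of 0.63 for replication in C and of -0.014 (C) and -0.17 (CK) for MHC class II. Thinned cells gave 20.95 points for the S score share in CK, 0.16, 0.15 and 0.33 for mitosis, 0.40 for replication in C and -0.016 for MHC class II in C over WT, and 171 genes above and 120 below WT in C and 538 below in K. Without immunoglobulin, mitochondrial and ribosomal genes, K over WT was 0.24 for mitosis and 0.10 for MHC class II; median-ratio scaling gave 0.24 and 0.10, and 0.28 (WT) and 0.32 (C) for mitosis in G2M over S. Relative to S-leading CBs, ratios to WT were 0.16, 0.12 and 0.29 for mitosis, 0.50 (K) and 0.83 (CK) for replication, -0.019, -0.0087 and 0.095 for MHC class II, 0.20, 0.16 and 0.20 for dark zone and 0.27 (CK) for light zone. Scores computed here gave 22.96 points (CK), 0.27 (WT), 0.41 (K) and 0.52 (CK) for mitosis and -1.502 (K) and -1.24 (CK) for replication.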
